A study of Mus musculus with 8 samples.

Results

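The 10 genes described here encode the transcription factor XBP1 and 9 proteins that fold or escort other proteins in the endoplasmic reticulum (ER): *Hspa5*, *Hsp90b1*, *Hyou1*, *Dnajb9*, *Pdia4*, *Pdia6*, *Calr*, *Sdf2l1* and *Creld2*. They were chosen by symbol from a table of read counts with 32390 rows, each was found on 1 row, and all 10 were among the 12725 rows with enough counts to be tested. The counts came from bulk RNA-seq of gastrocnemius, a calf muscle made mostly of fast fibers, of 8 male mice 21 months of age kept on chow. The 4 control mice were Nox4 fl/fl, so that both alleles of *Nox4*, which encodes an NADPH oxidase that makes hydrogen peroxide, could be cut by Cre recombinase. The 4 NOX4-deficient mice were MckCre:Nox4 fl/fl and carried the same floxed alleles with Cre driven by the muscle creatine kinase promoter, which works mainly in skeletal muscle fibers and more weakly in the heart. All 8 libraries carry the same batch number, were selected for poly(A) RNA and do not record strand. The mice are labelled as separate samples with no litter or day given, so that every p-value here measures the spread between these 8 samples.

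Proteins that enter the ER are bound by the HSP70 chaperone BiP, encoded by *Hspa5*, which is loaded by J-domain co-chaperones and reset by a nucleotide exchange factor. Glycoproteins are held by the lectins calreticulin and calnexin while oxidoreductases of the protein disulfide isomerase family set their disulfide bonds. When unfolded proteins build up, the sensors IRE1, ATF6 and PERK start the unfolded protein response. IRE1 splices the mRNA of *Xbp1* so that it encodes an active factor, and XBP1 and cleaved ATF6 switch on chaperone genes. In skeletal muscle the same membrane network is specialized as the sarcoplasmic reticulum, which stores the calcium for contraction. The counts are per gene, so that spliced and unspliced *Xbp1* mRNA are not separated in any value below.

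The DNA elements that ATF6 and XBP1 are known to bind stand in the promoters of some of these genes. The ER stress response element (ERSE) was searched as CCAAT, 9 bases of any kind and CCACG, on both strands, in the window from 250 bases before to 50 bases after each gene's start in RefSeq (GRCm38.p6). It was found in 5 of the 9 windows at hand, those of *Hspa5*, *Hsp90b1*, *Pdia6*, *Calr* and *Creld2*, and in 0.119% of all 32851 windows. The matches are shown because this element was found in each of these 5 windows. No search was made for other sequence that the 5 genes share. Each is read along the strand of the element, with CCAAT and CCACG in capitals and the 9 free bases in lower case, and the positions given next count from the start of the gene.
Hspa5: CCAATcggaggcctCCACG
Hsp90b1, distal: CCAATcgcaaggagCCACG
Hsp90b1, proximal: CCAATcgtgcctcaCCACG
Pdia6: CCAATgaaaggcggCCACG
Calr: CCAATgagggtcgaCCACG
Creld2: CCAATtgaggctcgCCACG
The element began at -65 in *Hspa5*, -212 and -107 in *Hsp90b1*, -98 in *Pdia6*, -162 in *Calr* and -126 in *Creld2*. It lay on the gene's own strand in *Hspa5*, in the distal match of *Hsp90b1* and in *Pdia6*, and on the other strand in the rest. The free bases differed in all 6 matches.

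The windows of *Xbp1*, *Dnajb9*, *Pdia4* and *Sdf2l1* held no ERSE. The shorter core TGACGTG of the unfolded protein response element, which XBP1 binds, was in 1 of the 9 windows, that of *Hspa5* at -157, and in 2.01% of all windows. CCAAT alone was in 8 of 9 windows and in 37.4% of all, and CCACG alone in 8 of 9 and in 32.8%, and both of these counts include the copies inside each ERSE. A second form of the element, ERSE-II (ATTGG, 1 base, CCACG), was in 0 of 9 windows and in 0.0365% of all. The core of the antioxidant response element bound by NFE2L2, searched as TGAC, 3 bases and GC, was in the windows of *Calr* and *Sdf2l1* and in 12.4% of all. Of these matches no binding was measured. The 250 bases before the start are printed for *Hspa5*, the most abundant of these mRNAs before correction for length, and for *Dnajb9* and *Xbp1*, whose levels differed most between the genotypes. Capitals mark each copy, on either strand, of TGACGTG and of the CCAAT and the CCACG that make up an ERSE.
Hspa5, chr2:34771840-34772089, GRCm38.p6, plus strand: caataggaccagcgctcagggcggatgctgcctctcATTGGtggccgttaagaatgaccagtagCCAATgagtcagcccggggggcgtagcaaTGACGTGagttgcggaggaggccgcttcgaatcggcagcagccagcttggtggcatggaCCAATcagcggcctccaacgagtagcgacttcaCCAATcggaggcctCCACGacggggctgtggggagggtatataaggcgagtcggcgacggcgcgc
Dnajb9, chr12:44210069-44210318, GRCm38.p6, minus strand: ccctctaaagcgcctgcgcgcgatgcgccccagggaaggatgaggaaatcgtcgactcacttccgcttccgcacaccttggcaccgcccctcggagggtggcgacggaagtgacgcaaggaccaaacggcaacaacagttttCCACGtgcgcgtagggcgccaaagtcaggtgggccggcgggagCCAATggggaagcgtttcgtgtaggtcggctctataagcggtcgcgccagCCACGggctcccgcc
Xbp1, chr11:5520391-5520640, GRCm38.p6, plus strand: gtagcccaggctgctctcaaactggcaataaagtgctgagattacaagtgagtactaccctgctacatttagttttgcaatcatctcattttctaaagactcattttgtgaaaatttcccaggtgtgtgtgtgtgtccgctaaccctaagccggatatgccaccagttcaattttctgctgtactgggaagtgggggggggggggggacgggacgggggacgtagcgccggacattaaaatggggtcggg
In *Hspa5* the letters stand 6 times in the stretch. In *Dnajb9* CCAAT and CCACG both occur, but at other distances than in an ERSE. In *Xbp1* none of the letters occurs.

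The libraries held 16350548 to 19804661 counts and levels are given as CPM, the counts of a gene scaled to a fixed library size, with library sizes adjusted by TMM, edgeR's correction for composition. A gene was called where edgeR's quasi-likelihood test gave a Benjamini-Hochberg adjusted p under 0.05 over all 12725 rows and where the log2 fold change was beyond 0.5 in either direction, thresholds taken from the study's methods. Fold changes are log2 of NOX4-deficient over control and errors of levels are SDs over 4 mice. The targeted gene was low in every library: *Nox4* had 85, 48, 35 and 70 counts in control 1 to 4 and 29, 43, 42 and 37 in NOX4-deficient 1 to 4. The groups overlapped and *Nox4* was not called (3.27 ± 1.42 against 2.07 ± 0.220 CPM, log2 fold change -0.65, SE 0.29, edgeR adjusted p = 0.207). Without control 1, the highest library, the fold change was -0.36 (edgeR adjusted p = 0.489). The counts cover the whole gene and other cells of the muscle keep *Nox4*, so they check the deletion only in part. Defining markers of fast-fiber muscle summed to 124379 to 157886 CPM in the controls and 133243 to 163067 CPM in NOX4-deficient libraries.

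Of the 10 genes, 3 were called lower in NOX4-deficient muscle, *Xbp1*, *Hyou1* and *Dnajb9*. For comparison, 3.48% of all rows tested were called lower. Called higher were 0 of the 10, by edgeR, DESeq2 and pydeseq2 alike and also at an unadjusted p under 0.05, against 2.68% of all rows. A further pair, *Hspa5* and *Hsp90b1*, had an adjusted p under 0.05 with a log2 fold change short of 0.5. All 4 NOX4-deficient libraries lay below all 4 controls in 5 of the 10 genes, compared with 8.97% of all rows, and above them in 0, compared with 7.2%. The fold change was negative in 9 of the 10 and its median was -0.40, beside a median of 0.01 over all rows tested. Without NOX4-deficient 4 the median of the 10 genes was -0.26. A lower level in whole muscle can come from fewer cells of a type or from less mRNA per cell, and these counts cannot tell them apart.

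**Figure D1:**
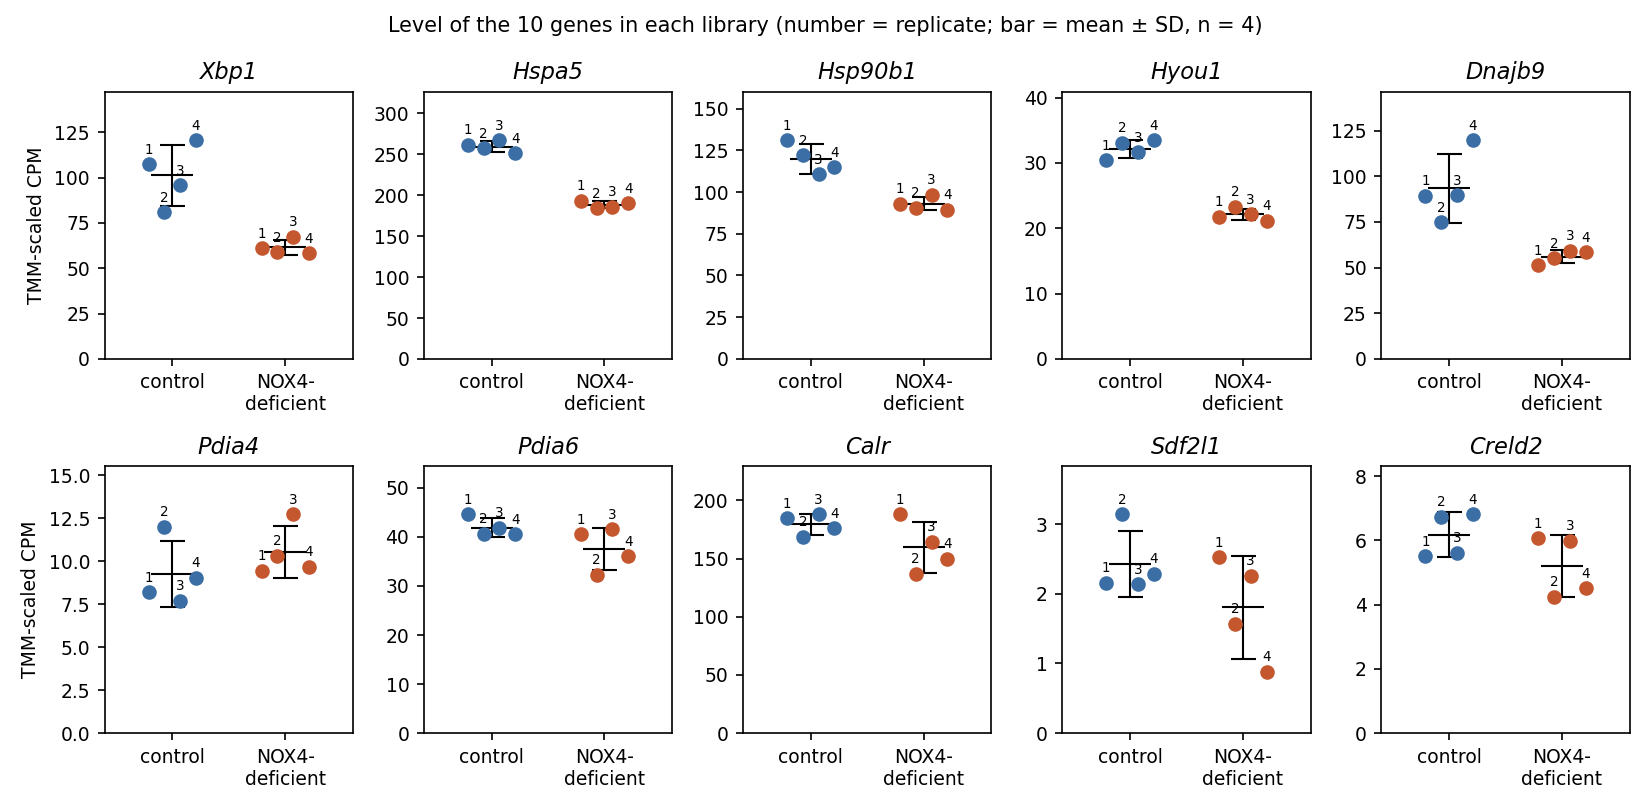
Level of each of the 10 genes (vertical axis, TMM-scaled CPM, from 0) in the 4 control and 4 NOX4-deficient libraries; each numbered point is 1 library and the bar is the mean ± SD, n = 4. In *Xbp1*, *Hspa5*, *Hsp90b1*, *Hyou1* and *Dnajb9* the groups do not overlap, and in the other 5 genes they do.

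*Xbp1* mRNA stood at 108, 81.0, 95.7 and 121 CPM in control 1 to 4 and at 61.1, 58.9, 67.4 and 58.5 CPM in NOX4-deficient 1 to 4. The lowest control was above the highest NOX4-deficient library, and the controls spread more widely than the NOX4-deficient mice. The mean fell from 101 ± 16.9 to 61.5 ± 4.12 CPM, a log2 fold change of -0.72 (SE 0.12, 95% interval -0.99 to -0.45, edgeR adjusted p = 0.00525). Control 4 was the highest, and without it the fold change was -0.63 with an edgeR adjusted p of 0.0124.

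*Hspa5*, which encodes BiP, the main HSP70 of the ER and the protein that keeps the stress sensors silent, was the most even of the genes within each genotype. It stood at 262, 258, 267 and 252 CPM in the controls and at 193, 184, 186 and 191 CPM in the NOX4-deficient libraries. The groups lay far apart relative to their spread (259.6 ± 6.67 against 189 ± 4.08 CPM). The difference passed the test but its size was under the fold threshold, with a log2 fold change of -0.46 (SE 0.08, 95% interval -0.65 to -0.28, edgeR adjusted p = 0.00772).

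Of the genes for co-factors of BiP, *Dnajb9* and *Hyou1* were called and *Sdf2l1* was not. *Dnajb9* encodes a J-domain co-chaperone that hands misfolded proteins to BiP and helps it to quiet IRE1, and it had the most negative fold change of the 10. Its levels were 89.3, 74.7, 89.7 and 119.8 CPM in the controls and 51.3, 55.0, 59.2 and 58.5 CPM in NOX4-deficient muscle. As with *Xbp1*, control 2 was the lowest control and control 4 the highest, and every NOX4-deficient library lay below both. *Dnajb9* fell by 0.74 on the log2 scale (SE 0.13, 95% interval -1.03 to -0.45, edgeR adjusted p = 0.00716), and without control 4 the fold change was -0.60 (edgeR adjusted p = 0.0110).

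*Hyou1* encodes a large relative of HSP70 that serves as nucleotide exchange factor for BiP. It stood at 30.4, 33.1, 31.6 and 33.5 CPM in the controls and at 21.8, 23.3, 22.2 and 21.2 CPM in the NOX4-deficient libraries. The gap between the groups was wider than the range of either group. The mean fell from 32.2 ± 1.40 to 22.1 ± 0.904 CPM, with a log2 fold change of -0.54 (SE 0.10, 95% interval -0.75 to -0.33, edgeR adjusted p = 0.00652), close to the fold threshold.

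*Sdf2l1*, a partner of BiP co-chaperones that keeps unfolded proteins from aggregating, was the least abundant of the 10 in CPM. It had 2.16, 3.14, 2.14 and 2.29 CPM in the controls and 2.53, 1.57, 2.26 and 0.879 CPM in NOX4-deficient muscle. Control 2 stood above the other controls, NOX4-deficient 4 stood below all others, and the groups overlapped. The log2 fold change was -0.43 with an SE of 0.31 (95% interval -1.09 to 0.24, edgeR adjusted p = 0.441). It was -0.19 without NOX4-deficient 4 and -0.28 without control 2.

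*Hsp90b1* encodes the HSP90 of the ER, which matures a narrow set of clients such as integrins and Toll-like receptors. The controls had 131, 122, 111 and 115 CPM and the NOX4-deficient libraries 93.1, 90.7, 98.4 and 89.5 CPM, with no overlap. Its log2 fold change was -0.37 (SE 0.09, 95% interval -0.57 to -0.17), with an edgeR adjusted p of 0.0320, and the fold threshold was not reached. With any 1 library left out the edgeR adjusted p rose past 0.05, to between 0.0533 and 0.0978, while the fold change kept its sign (-0.39 to -0.32).

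The oxidoreductases gave no call. *Pdia4*, a disulfide isomerase with several thioredoxin-like domains, was the only gene of the 10 with a positive fold change. It stood at 8.21, 12.0, 7.71 and 9.05 CPM in the controls and at 9.45, 10.3, 12.7 and 9.67 CPM in NOX4-deficient muscle. Control 2 and NOX4-deficient 3 were the high libraries and the groups overlapped (log2 fold change 0.19, SE 0.17, 95% interval -0.17 to 0.55, edgeR adjusted p = 0.540). With 1 library left out the fold change was 0.10 to 0.34.

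*Pdia6*, a disulfide isomerase that also damps IRE1, had 44.6, 40.7, 41.8 and 40.5 CPM in the controls and 40.5, 32.3, 41.5 and 36.1 CPM in NOX4-deficient muscle. NOX4-deficient 2 and 4 lay below every control, and NOX4-deficient 1 and 3 did not. The log2 fold change was -0.16 (SE 0.11, 95% interval -0.39 to 0.07, edgeR adjusted p = 0.416). It was -0.20 to -0.09 with 1 library left out. *Creld2*, a protein induced by ER stress with disulfide isomerase activity, had 5.51, 6.74, 5.62 and 6.81 CPM in the controls and 6.08, 4.25, 5.99 and 4.51 CPM in NOX4-deficient muscle. Again NOX4-deficient 2 and 4 were below every control and the other two were not. Its log2 fold change was -0.25 (SE 0.17, 95% interval -0.63 to 0.13, edgeR adjusted p = 0.437), and -0.32 to -0.16 with 1 library left out.

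*Calr* encodes calreticulin, a lectin that folds glycoproteins and binds calcium in the lumen. It stood at 184, 169, 188 and 176 CPM in the controls and at 188, 137, 165 and 149.9 CPM in NOX4-deficient muscle. NOX4-deficient 1 was level with the highest control, while the other NOX4-deficient libraries were below every control. The log2 fold change was -0.17 (SE 0.11, 95% interval -0.40 to 0.07, edgeR adjusted p = 0.401). With 1 library left out it was -0.24 to -0.10. The intervals of *Pdia6*, *Calr* and *Creld2* reach past -0.37, the fold change of *Hsp90b1*, so that a difference of that size is within them.

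**Figure D2:**
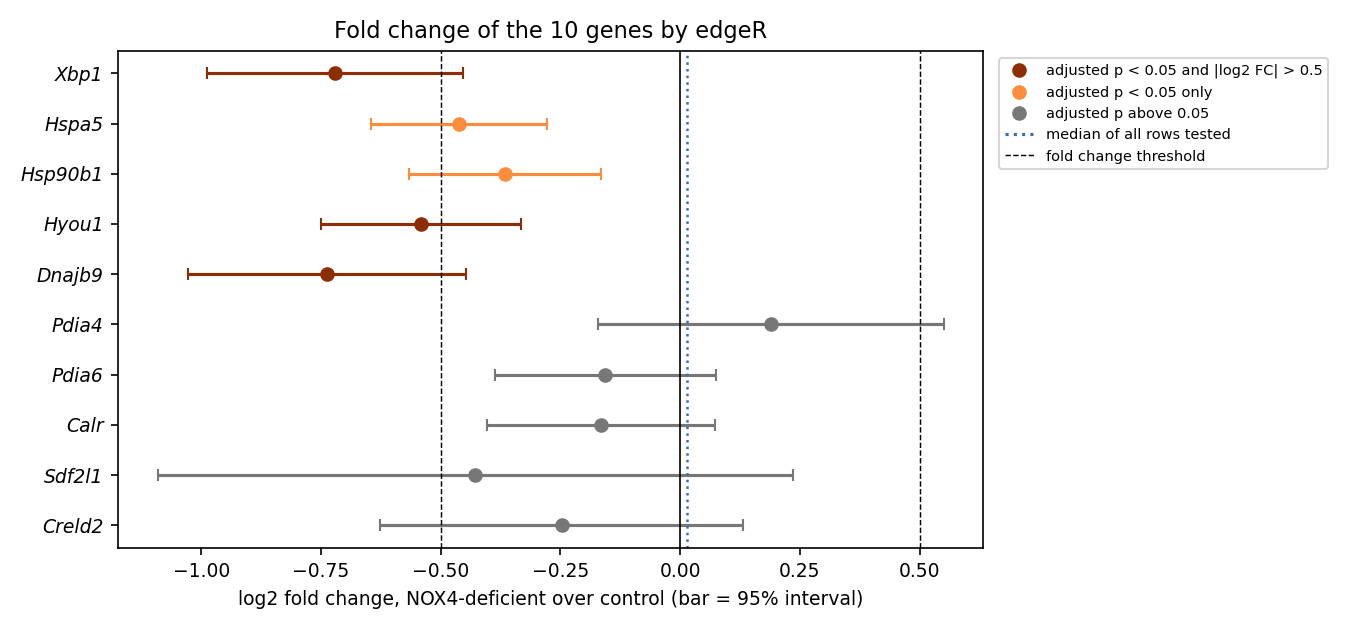
Log2 fold change of NOX4-deficient over control (horizontal axis) for each of the 10 genes by edgeR, with its 95% interval as a bar; dashed lines stand at the fold threshold of 0.5 in each direction and the dotted line at the median of all rows tested, 0.01. The 5 intervals that lie wholly below 0 are those of *Xbp1*, *Hspa5*, *Hsp90b1*, *Hyou1* and *Dnajb9*.

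Within the NOX4-deficient group, the libraries ordered alike in several of these genes. In 6 of the 10, *Xbp1*, *Hsp90b1*, *Pdia6*, *Calr*, *Sdf2l1* and *Creld2*, NOX4-deficient 1 and 3 were both above NOX4-deficient 2 and 4, as they were in 26.1% of all rows tested. The labels give no meaning to odd and even numbers. Comparing odd with odd and even with even numbers, *Creld2* differed by a log2 of 0.12 among the odd and of -0.63 among the even, *Sdf2l1* by 0.15 and -1.19, and *Pdia4* by 0.46 and -0.06. Control 4 was the highest control in 4 of the 10 genes, and in 30.6% of all rows.

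To compare levels between genes, CPM were divided by the length in kilobases of all exons annotated for each gene, merged over its transcripts (GENCODE M21). This length can exceed that of the mRNA made, and the counts were made on another build. The order of the genes below rests on these lengths. On this scale *Calr* (62.2 ± 3.00 CPM per kilobase) and *Hspa5* (61.4 ± 1.58) led in control muscle and did not differ beyond their spread. *Dnajb9* (36.6 ± 7.43), *Xbp1* (31.2 ± 5.20) and *Hsp90b1* (29.7 ± 2.22) followed as a group whose spreads overlapped. *Pdia6* stood at 11.2 ± 0.505, and *Creld2* (4.52 ± 0.513), *Hyou1* (4.45 ± 0.193) and *Pdia4* (3.85 ± 0.799) were close together above *Sdf2l1* (2.19 ± 0.430). In NOX4-deficient muscle *Calr* again led, at 55.5 ± 7.60 CPM per kilobase, ahead of *Hspa5* at 44.6 ± 0.964. *Hsp90b1* (23.0 ± 0.978) and *Dnajb9* (22.0 ± 1.42) came next, within their spread of each other, above *Xbp1* (18.9 ± 1.27). *Pdia6* came next again, followed by *Pdia4* (4.39 ± 0.625) and *Creld2* (3.81 ± 0.703), whose spreads overlapped, then *Hyou1* (3.06 ± 0.125) and *Sdf2l1* (1.63 ± 0.667).

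Whether *Xbp1* fell more than the genes around it was asked within each library, as the log2 ratio of *Xbp1* to each of the other 9 genes. Against *Dnajb9* the ratio hardly moved, by 0.01 (exact two-sided permutation p = 0.943, adjusted over the 9 ratios 0.943). Against *Hyou1* it differed by -0.17 and against *Hspa5* by -0.25 (exact permutation p = 0.286 and 0.200, adjusted 0.367 and 0.300). With 1 library left out these differences ran from -0.28 to -0.10 and from -0.34 to -0.14. Against *Pdia6* the difference was -0.54, against *Calr* -0.53 and against *Pdia4* -0.91, and in these 3 ratios every NOX4-deficient library lay below every control. Each reached the smallest p that 4 mice against 4 allow (exact two-sided permutation p = 0.0286), but after adjustment over the 9 ratios the p was 0.0857 for all 3. Against *Hsp90b1*, *Creld2* and *Sdf2l1* the difference was -0.34, -0.45 and -0.19 (exact permutation p = 0.0571, 0.0857 and 0.629, adjusted 0.129, 0.154 and 0.707). None of the 9 ratios passed after adjustment. With only 3 ratios at this floor none could pass, so the adjusted values do not show that *Xbp1* fell no more than the other genes.

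**Figure D3:**
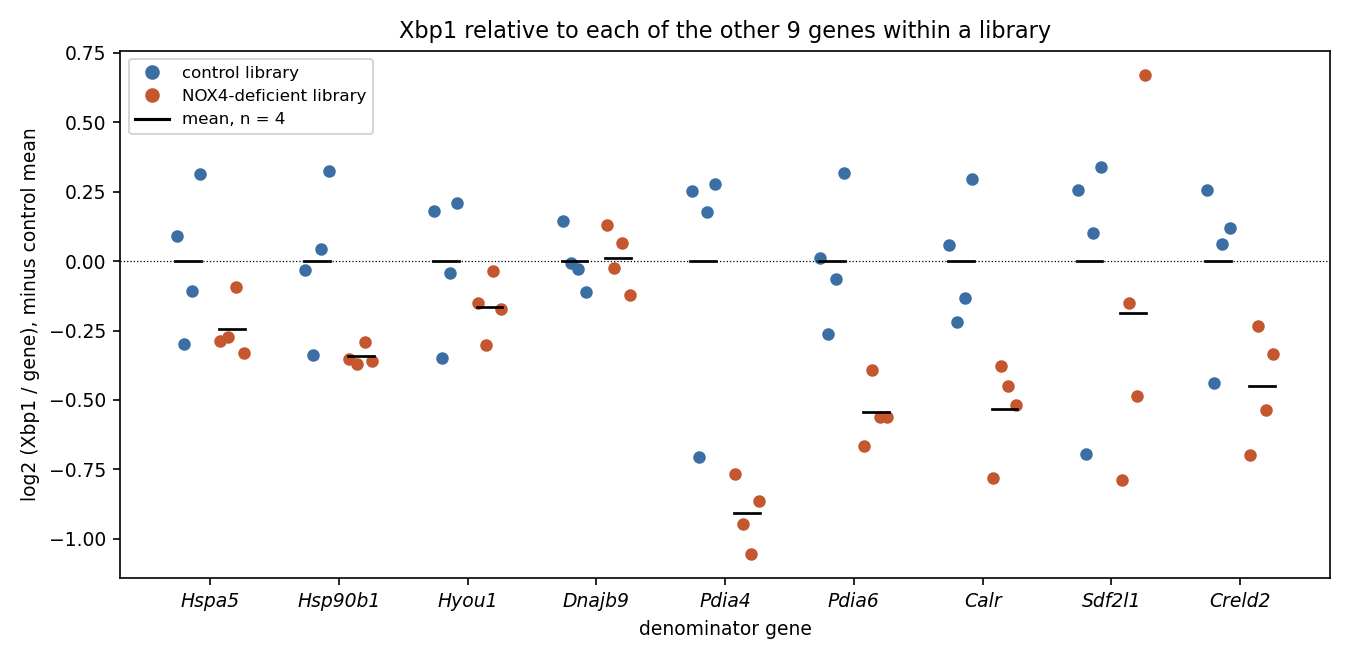
Log2 ratio of *Xbp1* to each of the other 9 genes within a library, minus the control mean of that ratio (vertical axis); each point is 1 library and the bar the mean of 4. The NOX4-deficient libraries lie below all controls for the ratios to *Pdia4*, *Pdia6* and *Calr*, and overlap them in the other 6 ratios.

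The rows whose profile over the 8 libraries was most like that of *Xbp1* were ranked by the root mean square distance between log2 CPM, each centred on its own mean, over 12709 rows. The closest 5 were *Sqstm1* (distance 0.0722), which encodes the autophagy receptor p62, the transcription factor *Foxp1* (0.0742), the late endosome GTPase *Rab7a* (0.0823), the kinase *Mknk2* (0.0839) and the phosphatase methylesterase *Ppme1* (0.0841). Among the other 9 genes described here, *Dnajb9* was the closest at rank 9 (0.0942), then *Hyou1* at rank 144, *Hspa5* at 247 and *Hsp90b1* at 442. The rest stood between rank 1598 (*Pdia6*) and rank 8610 (*Pdia4*). These ranks rest on 8 libraries and on the genotype difference itself, and are a description.

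The sensors upstream of these genes were read from a list of 6 sensors and their proteases, of which 5 were tested. Of these, 1 was called lower and 0 higher, against 3.48% and 2.68% of all rows tested, with a median log2 fold change of -0.21. *Atf6*, the membrane-bound sensor whose cleaved form is a transcription factor, had 42.4, 56.5, 50.5 and 59.8 CPM in the controls and 25.2, 41.9, 26.0 and 35.4 CPM in NOX4-deficient muscle. The highest NOX4-deficient library, number 2, lay just under the lowest control, number 1. *Atf6* fell from 52.3 ± 7.64 to 32.1 ± 7.97 CPM (log2 fold change -0.70, SE 0.17, edgeR adjusted p = 0.0255). This call was lost in 5 of the 8 fits that each leave out 1 library, those without control 2, 3 or 4 or without NOX4-deficient 1 or 3, at edgeR adjusted p of 0.0559 to 0.0728.

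*Ern1*, which encodes IRE1, the sensor that splices *Xbp1* mRNA, stood at 15.8 ± 2.32 CPM in the controls and 11.6 ± 2.78 CPM in NOX4-deficient muscle (log2 fold change -0.44, SE 0.18, edgeR adjusted p = 0.154). *Eif2ak3*, which encodes PERK, the sensor that slows translation, stood at 3.56 ± 0.240 and 4.33 ± 0.501 CPM (0.28, SE 0.17, edgeR adjusted p = 0.344). Neither passed the test. On the PERK branch 2 of 10 genes were called lower and 0 higher, against 3.48% and 2.68% of all rows tested. The fold change was negative in 7 and positive in 3, and the median was -0.38. *Ppp1r15a*, the phosphatase subunit that restarts translation, fell from 55.4 ± 10.3 to 27.9 ± 6.01 CPM (-0.99, SE 0.17, edgeR adjusted p = 0.00529). *Atf3*, a stress-induced transcription factor, fell from 20.5 ± 3.81 to 8.02 ± 3.38 CPM (-1.36, SE 0.28, edgeR adjusted p = 0.0175), a call that was lost without NOX4-deficient 2 (edgeR adjusted p = 0.0583) and with no filter on low counts (0.0554).

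The rest of the ER folding machinery held few calls, beside 3.48% of all rows tested called lower and 2.68% called higher. Of 8 other BiP co-chaperones 0 were called in edgeR, 1 was lower at an unadjusted p under 0.05, and DESeq2 and pydeseq2 each called 1 lower (median -0.07). The smallest p was that of *Manf*, a secreted ER protein that binds BiP, at 18.5 ± 0.891 CPM in the controls and 12.4 ± 3.27 CPM in NOX4-deficient muscle (log2 fold change -0.58, SE 0.17, edgeR adjusted p = 0.0561). *Manf* was called lower in 6 of 17 alternatives, among them the replicate block (-0.61, edgeR adjusted p = 0.0298). Of 11 genes of disulfide formation 0 were called by edgeR, DESeq2 or pydeseq2, with 4 lower and 1 higher at an unadjusted p under 0.05 (median -0.15). *Pdia3*, the isomerase that works with the calnexin cycle, stood at 61.2 ± 3.47 and 44.7 ± 6.09 CPM, with no overlap and a fold change short of the threshold (-0.45, SE 0.11, edgeR adjusted p = 0.0291). Of 6 genes of the calnexin cycle and of 12 of translocation into the ER 0 were called by any of these tools, with 2 and 1 lower at an unadjusted p under 0.05 and medians of -0.16 and -0.02. Their smallest p-values were those of *Uggt1*, the sensor that returns unfolded glycoproteins to the cycle (99.6 ± 13.9 and 73.9 ± 18.1 CPM, -0.43, edgeR adjusted p = 0.133), and *Ssr2*, a translocon subunit (30.1 ± 3.22 and 24.9 ± 2.66 CPM, -0.27, edgeR adjusted p = 0.193).

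Of 17 genes of ER-associated degradation, which sends misfolded proteins to the proteasome, 1 was called lower and 0 higher (median -0.12). Over all rows tested the shares were 3.48% and 2.68%. *Ube2g2*, a ubiquitin-conjugating enzyme of this route, fell from 115 ± 13.3 to 78.7 ± 8.18 CPM (log2 fold change -0.55, SE 0.11, edgeR adjusted p = 0.0142). It dropped under the fold threshold without control 4 (-0.49) and without NOX4-deficient 2 (-0.48). The sarcoplasmic reticulum list went the other way in sign: the fold change was positive in 10 of its 10 genes, with a median of 0.19. Among all rows it was positive in 6660 of 12725. In this list 1 gene was called higher and 0 lower, against 2.68% and 3.48% of all rows. *Casq2*, the calcium-storing calsequestrin of slow and cardiac muscle, rose from 13.8 ± 3.66 to 28.0 ± 8.93 CPM (1.02, SE 0.23, edgeR adjusted p = 0.0220). This call was lost without control 3 (edgeR adjusted p = 0.0576), without control 4 (0.0585) and with the replicate number as a block (0.0733). Slow-fiber markers summed to 137 to 317 CPM in the controls and 166 to 605 CPM in NOX4-deficient libraries, and their part in the *Casq2* value was not tested.

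The list of cytosolic and mitochondrial chaperones held more calls than any other of the 9 lists, and none of those calls was of a mitochondrial chaperone. Of 14 cytosolic and mitochondrial chaperones 5 were called lower and 0 higher, against 3.48% and 2.68% of all rows tested. The fold change was negative in all 14, beside 6065 of 12725 rows, and the median was -0.37. All NOX4-deficient libraries lay below all controls in 10, against 8.97% of all rows. *Hspb1*, a small heat shock protein of the sarcomere, fell from 186 ± 30.0 to 80.2 ± 15.8 CPM (log2 fold change -1.21, SE 0.15, edgeR adjusted p = 9.78e-04). *Hsp90aa1*, the inducible cytosolic HSP90, fell from 80.4 ± 13.4 to 46.7 ± 3.11 CPM (-0.78, SE 0.12, edgeR adjusted p = 0.00327). *Hspa1b*, an inducible cytosolic HSP70, fell from 6.65 ± 2.66 to 1.98 ± 0.135 CPM (-1.75, SE 0.28, edgeR adjusted p = 0.00335), although reads of its near-identical copy *Hspa1a* cannot be cleanly separated from it. Over all 9 lists, 9 of 93 genes tested were called lower and 1 higher, against the same 3.48% and 2.68% of all rows. Where 0 genes of a list were called higher, or 0 lower in the sarcoplasmic reticulum list, DESeq2 and pydeseq2 also called 0, and at an unadjusted p under 0.05 the one exception was a gene of disulfide formation. The number of negative and positive fold changes in each list was the same with DESeq2 size factors and with library size alone.

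**Figure D4:**
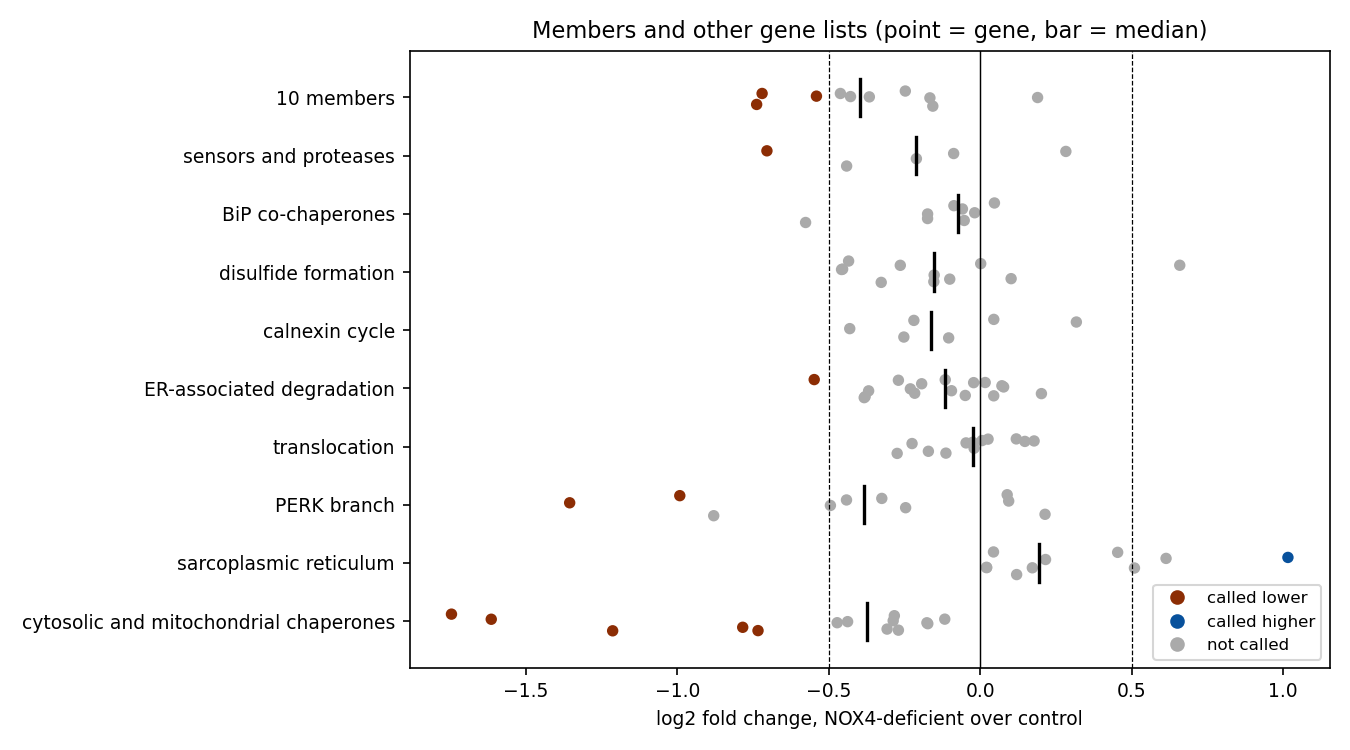
Log2 fold change of NOX4-deficient over control (horizontal axis) for the 10 genes, labelled members, and for each of 9 other gene lists; each point is 1 gene, coloured by its call, and each bar the median of its list. The medians run from -0.40 for the 10 genes (-0.26 without NOX4-deficient 4) to 0.19 for the sarcoplasmic reticulum list.

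Of 38 markers tested for slow and fast fibers, fibroblasts and tendon, endothelium, macrophages, plasma cells and adipocytes, 0 were called by edgeR, DESeq2 or pydeseq2, and none was at 0 counts in every library. At an unadjusted p under 0.05 edgeR gave 6 of them, which are named here after their values were seen. Lower were *Mzb1* of plasma cells (log2 fold change -0.99, edgeR adjusted p = 0.0687) and *Ptprc* and *Adgre1* of leukocytes (-0.90 and -0.94), and higher were *Col1a1*, *Col1a2* and *Tnmd* of fibroblasts and tendon (0.76, 0.76 and 0.78). In the same list *Dcn*, which holds most of its sum, and *Pdgfra* had fold changes of -0.32 and -0.32. Plasma cells are secretory cells that depend on XBP1, and their 5 markers summed to 3.96 to 7.01 CPM in the controls and 4.51 to 6.92 CPM in NOX4-deficient libraries. Most of that sum was *Sdc1*, which other cells make too (log2 fold change 0.38, edgeR adjusted p = 0.417). *Mzb1* stood at 0.910 to 1.13 CPM in control and 0.405 to 0.578 CPM in NOX4-deficient libraries, with no overlap, and *Jchain* had a fold change of -0.27. Macrophage and leukocyte markers summed to 25.8 to 73.5 and 13.0 to 49.5 CPM, and fibroblast and tendon markers to 366 to 652 and 367 to 614 CPM. Endothelial markers summed to 188 to 235 and 204 to 220.5 CPM, and adipocyte markers to 14.3 to 78.5 and 19.7 to 73.3 CPM. The part of these cells in the levels of the 10 genes was not tested.

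Some exons of these genes are shared with others, and reads of the shared bases cannot be cleanly assigned. Strand, which was not recorded, would help only for genes on the opposite strand. In GENCODE M21 *Hsp90b1* shares 84 exon bases on the same strand with *Gm15344*, which had 18 counts over all libraries. It also shares 133 bases with the microRNA gene *Gm25745* on the same strand and 415 with the pseudogene *1810014B01Rik* on the opposite strand. Neither of these was analysed here. *Pdia6* shares 50 bases with *Atp6v1c2* on the opposite strand, which had 3 counts in all beside 5812 of *Pdia6*.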

How the data were processed

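Gastrocnemius RNA of 8 mice was sequenced as unstranded poly(A) libraries. The authors processed the reads with the nf-core RNA-seq pipeline and deposited raw counts per gene, 1 column per mouse. Per the labels' processing notes the aligner was STAR and the build GRCm39, while annotation and counting options are not given in the sources used here. Libraries of 16350548 to 19804661 counts were fitted with edgeR 4.0.16 (limma 3.58.1, R 4.3.3). Low rows were dropped by filterByExpr, libraries scaled by TMM, and genotype, the single term, tested with glmQLFTest after estimateDisp and glmQLFit (robust), with Benjamini-Hochberg adjustment over 12725 of 32390 rows. Where a symbol had several rows, the row with most counts was used. The SE is the log2 fold change divided by the root of F, and the 95% interval uses the fit's degrees of freedom. DESeq2 1.42.0 and pydeseq2 0.5.4 were alternatives. No pair of same-genotype libraries differed by as little as counting noise (chi-square per degree of freedom 12.6 to 52.1). The analysis was tested on simulated counts. The 10 genes, the pathway lists and the marker lists were chosen with earlier results of these data known. Named besides the 10 genes are *Nox4*, the 3 stress sensors, the up to 3 called genes of each list with the smallest p (with no call, the 1 with the smallest p) and the 5 rows nearest to *Xbp1*. GRCm38 annotation (GENCODE M21) and RefSeq windows (GRCm38.p6, matched by symbol for 9 of 10 genes, not for *Hyou1*) gave lengths and sequences only. Of the lists, *Derl3* was not tested, and *Mbtps2* and *Srp54a* were not analysed here. Columns of values left unmatched were 0.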

Additional observations from a re-analysis of the deposited data

Results flagged for a closer look

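Of 20 groups of 4 libraries (10 genes in 2 genotypes), 1 held a library far from the others by Dixon's ratio. *Sdf2l1* was highest in control 2, at 3.14 CPM beside 2.14 to 2.29 CPM in the other controls. The gap to the nearest library was 0.853 of the range of the group, past Dixon's 95% critical value for 4 samples. Chance puts about 1 in 20 groups past this value, and *Sdf2l1* rests on few counts.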

How the results depend on the processing

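The calls of *Xbp1*, *Hyou1* and *Dnajb9* held in 17 of 17 alternatives (other scalings, low-count filters and fits, DESeq2, pydeseq2, a replicate block, a term for odd and even numbers and each library left out), with fold changes of -0.81 to -0.63, -0.57 to -0.51 and -0.83 to -0.60. With no minimum fold change, 5 of the 10 genes were called lower. Over all rows 784 were called, 252 at an adjusted p under 0.01 and 499 (without control 4) to 712 with 1 library left out, against 1017 by DESeq2 and 1009 by pydeseq2. In the 9 other lists, 9 were called lower and 1 higher. At an adjusted p under 0.01 these were 5 and 0. Leaving out 1 library gave 7 to 11 lower and 0 (without control 4) to 2 higher, and DESeq2, pydeseq2 and the odd and even term each gave 2 higher. The median fold change of the 10 genes was -0.42 to -0.26 with 1 library left out, and the -0.26 came without NOX4-deficient 4. In the main fit this median lay midway between *Hsp90b1* (-0.37) and *Sdf2l1* (-0.43). Without NOX4-deficient 4 the same genes held the middle, at -0.33 and -0.19, and *Sdf2l1* rests on few counts. Beyond that, the cause of these shifts was not tested. Same-numbered mice deviated together with correlations of 0.254, 0.166, 0.064 and 0.0461, and only replicate 1 correlated best with its own number, so the numbers were not taken as pairs. With the replicate number as a block, the 10 genes gave 3 lower calls and a median of -0.41, the lists 11 lower and 1 higher, and all rows 933 calls. Of the values of 25 single genes under these 17 alternatives, 405 stayed on their side of the threshold, 12 lost a call, 8 gained one and 0 calls reversed. Of the ratios of *Xbp1* to the other 9 genes, 0 passed after adjustment with 1 CPM added or with any 1 library left out. The smallest adjusted p was 0.0514 (exact permutation, without control 2), and with few ratios at the floor of this test none can pass. In a sign-flip test over 4 pairs, which cannot go below an exact p of 0.125, 0 passed too. With 1 library left out, 4 of 72 ratio differences changed sign, those of *Dnajb9* (-0.03 to 0.06) and *Sdf2l1* (-0.47 to 0.01).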

Other observations

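Genes other than the 10 whose RefSeq window held an ERSE numbered 32, of which 12 had enough counts to be tested. Of these 1 was called lower and 0 were called higher, against 3.48% and 2.68% of all rows tested. A negative fold change was found in 11, beside 6065 of 12725 rows. The median was -0.22, beside a median of 0.01 over all rows tested. The called gene, named here after its values were seen, was *Acacb*, which encodes the acetyl-CoA carboxylase at the mitochondrial membrane. It fell from 399 ± 35.5 to 269.9 ± 44.6 CPM (log2 fold change -0.56, SE 0.13, edgeR adjusted p = 0.0194). The one positive value, also named after it was seen, was that of *Pan2*, a subunit of a poly(A) nuclease, at 6.41 ± 1.05 CPM in the controls and 9.09 ± 1.32 CPM in NOX4-deficient muscle (0.51, SE 0.16, edgeR adjusted p = 0.0841).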
